A study of Mus musculus with 2 samples.

Results

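Somatostatin interneurons were examined in single-nucleus RNA sequencing of mouse brain taken 12 h after subarachnoid haemorrhage (SAH). A nucleus was counted as one when it held 300 to 7000 genes, at least 2000 unique molecular identifiers (UMIs, each standing for 1 captured RNA molecule), at least 3 UMIs of *Gad1* plus *Gad2*, at least 5 of *Sst* and at least 2 of *Sox6*. It also had to hold at most 5 UMIs of *Adarb2*, at most 2 of *Baiap3*, at most 2 of *Slc17a7* plus *Slc17a6*, and at most 5 of *Mobp* plus *St18*. In all, 311 of 30413 nuclei met these limits. The Normal library gave 167 and the SAH library 144.

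The SAH library came from male mice in which a vessel had been perforated from within, and the Normal library from male mice that the labels call normal and the study's methods call sham. The labels give an age of 6 to 8 weeks, which differs from the age in the methods, where the strain is C57BL/6J. Each library pooled tissue of 3 mice, from the haemorrhagic side and from 2.34 to -2.18 mm relative to bregma, so several brain regions were mixed. With 1 library per condition no difference could be tested, and the brackets below hold 95% intervals for counting error only, which leave out the variation between mice and between libraries.

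Somatostatin interneurons are inhibitory neurons that release GABA together with the peptide somatostatin. They are born in the medial ganglionic eminence of the embryonic brain, under the transcription factors *Nkx2-1*, *Lhx6* and *Sox6*. In the cortex many of them, the Martinotti cells, send their axons to the distal dendrites of pyramidal neurons and gate the input that these receive. A smaller type with *Chodl* and *Nos1* sends long-range axons and is known for activity during sleep. Peptides such as somatostatin and cortistatin are cut from precursors in dense-core vesicles, and many genes of this pathway are known to respond to neuronal activity.

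The somatostatin interneurons were deeply sequenced nuclei. Their median depth was 11327 UMIs in Normal and 12411 in SAH, with 3645 and 3682 genes detected in the median nucleus. Together they held 2065250 UMIs in Normal and 1964319 in SAH. No nucleus reached 10% mitochondrial UMIs. The libraries shared 78 cell barcodes, none of them in a somatostatin interneuron.

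The label was checked against genes that the choice did not use. *Nxph1*, which encodes a secreted neurexin ligand typical of interneurons from the medial ganglionic eminence, had a UMI in all 167 Normal and in 143 of 144 SAH nuclei. *Grin3a*, an NMDA receptor subunit enriched in this class, had one in 155 and 140 nuclei. *Lhx6* was seen in 86 and 65 nuclei, a share of 51.5% [43.7, 59.3] and 45.1% [36.8, 53.6]. *Nkx2-1*, an early factor that cortical interneurons switch off, was seen in 2 nuclei of each library. The parvalbumin gene *Pvalb*, which marks the other large class from the same origin, had 7 and 3 UMIs in all.

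Markers of other cell types were summed in the same nuclei. The oligodendrocyte, excitatory neuron and *Adarb2* interneuron lists include *Mobp*, *St18*, *Slc17a7*, *Slc17a6* and *Adarb2*, which the rule capped. The sums of these lists were thus partly held down by the choice and are a description. Vascular markers summed to 2.91 counts per 1e+06 UMIs (CPM) in Normal and 2.55 in SAH, with *Cldn5*, *Vtn*, *Kcnj8*, *Slco1a4*, *Col1a2* and *Ly6c1* at 0 in both. The 4 haemoglobin genes summed to 4.36 and 2.55 CPM. Oligodendrocyte markers lay at 91.0 and 91.6 CPM, and microglia markers at 98.8 and 102 CPM, with *Mrc1* at 0 in both. *P2ry12*, the most abundant microglia marker, made up 77 of 204 and 125 of 200 UMIs, a log2 ratio of 0.77. Excitatory neuron markers lay at 352.5 and 368 CPM, led by *Camk2a*. Oligodendrocyte precursor markers lay at 388 and 494 CPM, nearly all of it *Lhfpl3*, with *Cspg4* at 0 in both. Markers of *Adarb2* interneurons lay at 149 and 105 CPM, led by *Cnr1*, and markers of parvalbumin interneurons at 1374 and 1138 CPM, led by *Il1rapl2*. Astrocyte markers summed to 272 CPM in Normal and 480 in SAH, of which *Gpc5* made up 409 of 562 and 774 of 942 UMIs, while *Gfap* was at 0 in both. Striatal projection neuron markers summed to 1345 and 708 CPM, of which *Pde10a* made up 2382 of 2778 and 1112 of 1390 UMIs. Their part in the results below was not tested.

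Somatostatin interneurons formed a smaller share of the SAH library. Of the nuclei with the same limits on genes and UMIs, they made up 1.66% [1.42, 1.93] of 10035 in Normal and 0.942% [0.795, 1.11] of 15287 in SAH. Among nuclei with at least 3 UMIs of *Gad1* plus *Gad2*, they made up 8.64% [7.42, 9.98] of 1934 and 5.78% [4.90, 6.77] of 2490. Since nuclei were chosen by their *Sst* count, a lower *Sst* level lowers this share by itself. When *Sst* was left out and nuclei were chosen by *Grin3a* (at least 5 UMIs) and *Nxph1* (at least 10 UMIs) with the other limits kept, the shares were 1.45% [1.23, 1.71] from 146 nuclei and 1.31% [1.14, 1.51] from 201 nuclei. These intervals overlapped, and those of the *Sst*-based shares did not. The second choice was made after the data had been seen.

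*Sst* (ENSMUSG00000004366, chr16:23889573-23890958 in GRCm38, minus strand) encodes the somatostatin precursor. Its counts chose the nuclei, so its values are a description. The Normal nuclei held 4744 *Sst* UMIs (2297 CPM [2232, 2363]) and the SAH nuclei 1896 (965 CPM [922, 1010]), so the log2 ratio of SAH over Normal was -1.25 [-1.33, -1.17]. A Normal nucleus held a median of 18 *Sst* UMIs and at most 246, and an SAH nucleus a median of 10 and at most 49. The lower quartiles were 11 and 6 UMIs and the upper quartiles 34 and 17, and both libraries start at 5 by the rule. At least 50 UMIs were held by 24 Normal nuclei and by no SAH nucleus. Just inside the limit, 6 Normal and 25 SAH nuclei held exactly 5 *Sst* UMIs. Just outside it, 9 Normal and 20 SAH nuclei held exactly 4.

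In the nuclei chosen without *Sst*, the gap was wider. *Sst* lay at 1781 CPM [1724, 1840] in Normal against 606 CPM [578, 635] in SAH, and the log2 ratio was -1.56 [-1.64, -1.47]. The medians were 18 and 5 UMIs per nucleus, at median depths of 13165 and 13423 UMIs. At least 5 *Sst* UMIs were found in 120 of 146 Normal nuclei (82.2% [75.01, 88.0]) and in 121 of 201 SAH nuclei (60.2% [53.1, 67.0]). No *Sst* UMI was found in 6.16% [2.86, 11.4] and 10.9% [6.99, 16.1] of them, so most nuclei of this kind in SAH still held the transcript.

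*Sst* RNA outside these cells was also lower in SAH. Excitatory neurons with *Slc17a7*, which should lack it, held 15.5 CPM [13.9, 17.1] in Normal and 2.29 CPM [1.49, 3.35] in SAH, and 15.2% and 4.78% of these nuclei had a UMI, at median depths of 17375 and 20811 UMIs. Oligodendrocyte nuclei (at least 20 UMIs of *Mobp* plus *St18*) held 52.1 and 13.1 CPM. These levels were taken as background, and they lay below those of the somatostatin interneurons in each library. At least 5 *Sst* UMIs were held by 2 *Slc17a7* and 1 oligodendrocyte nuclei in Normal and by 0 and 2 in SAH, and the part of free RNA and of doublets was not tested.

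**Figure D1:**
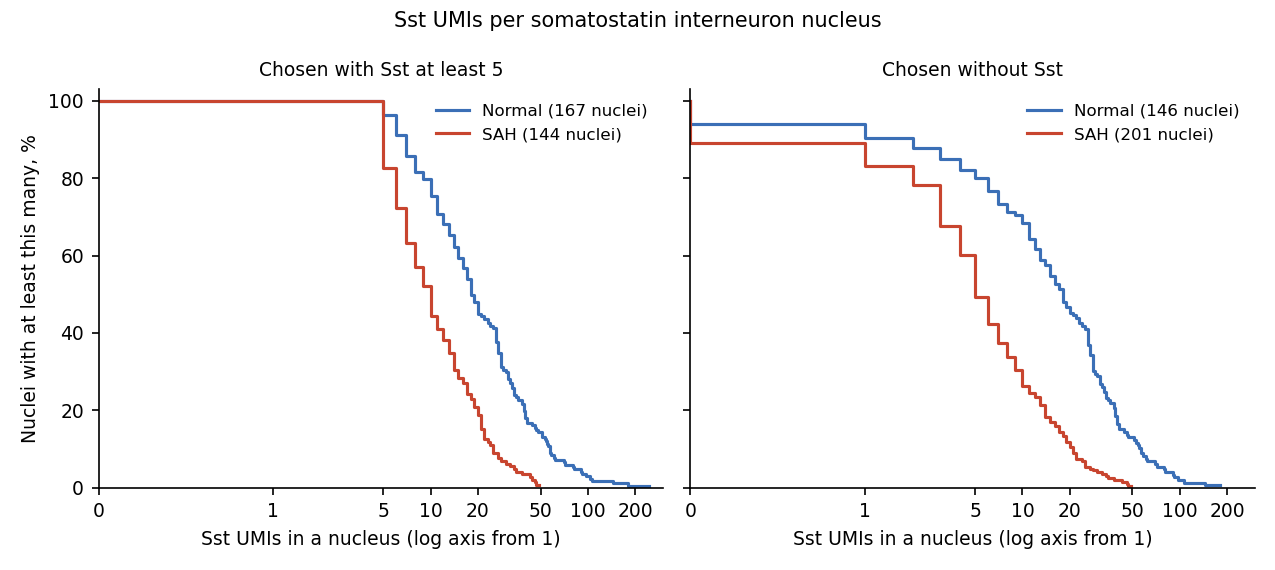
Share of nuclei (y axis, percent) that held at least a given number of *Sst* UMIs (x axis, logarithmic from 1), for nuclei chosen with *Sst* (left) and without it (right), in the Normal (blue) and SAH (red) libraries. The SAH curve lies to the left in both panels, with medians of 10 against 18 UMIs on the left and 5 against 18 on the right.

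Across the transcriptome, lower levels in SAH were more frequent than higher ones. Of 5410 genes with at least 100 UMIs over both libraries, 309 (5.71%) were at least 1.5-fold higher in SAH and 703 (13.0%) at least 1.5-fold lower. Genes with this many UMIs are called tested below, although no statistical test was run, and past the fold means past 1.5-fold. The median log2 ratio was -0.13. Centred on that median, the counts were 479 higher and 432 lower, and with TMM scaling (a trimmed mean of log ratios, which moved the centre by -0.16) 535 higher and 380 lower. The share of higher genes among those past the fold was thus 30.5%, 52.6% and 58.5%, and the direction of this balance depended on the scaling.

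The ratios followed gene length. The median log2 ratio was -0.59 for 285 genes under 10 kb and -0.36 for 1054 genes of 10 to 30 kb, against 0.01 for 1247 genes of 100 to 300 kb and 0.22 for 482 genes over 300 kb. Of the genes under 10 kb, 50.9% were past the fold downwards. The same slope was seen in *Adarb2* interneurons (-0.53 under 10 kb and 0.17 over 300 kb) and in *Slc17a7* neurons (-0.49 and 0.14). Its part in the results for single genes was not tested, and values centred on the 500 tested genes nearest in length are therefore given beside the main groups. This centring was added after the data had been seen. Centred in this way, 423 genes were higher and 248 lower.

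**Figure D2:**
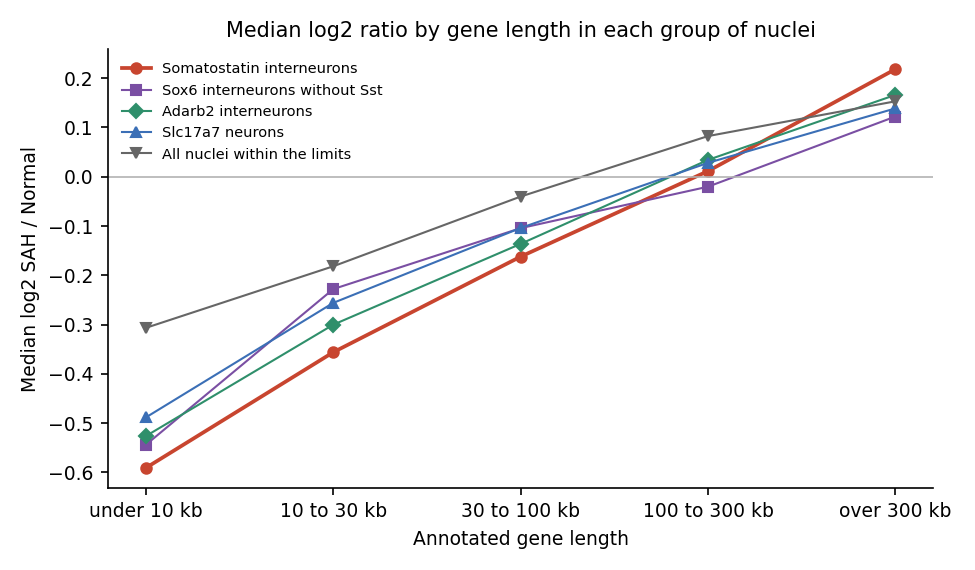
Median log2 ratio of SAH over Normal (y axis) for genes in 5 classes of annotated length (x axis), one line per group of nuclei. In somatostatin interneurons the median goes from -0.59 in the shortest class to 0.22 in the longest, and the other lines rise in the same order.

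Some peptide genes of these cells were lower in SAH, with *Cort* past the fold also when centred for length. Of 33 peptide and peptide receptor genes other than *Sst*, 8 reached 100 UMIs, and of these 4 were past the fold downwards and none upwards (13.0% and 5.71% of all tested genes), with a median log2 ratio of -0.55 (-0.19 centred for length) beside -0.13 for all tested genes. *Cort*, which encodes cortistatin, a close relative of somatostatin that shares its receptors, had 150 UMIs in Normal and 21 in SAH. These were 72.6 CPM [61.5, 85.2] and 10.7 CPM [6.62, 16.3], a log2 ratio of -2.76 [-3.50, -2.10]. It was found in 43 Normal and 13 SAH nuclei, and a single Normal nucleus held 40 of its UMIs. Of the oligodendrocyte nuclei, with median depths of 3898.5 and 3802 UMIs, 0.962% and 0.161% held a *Cort* UMI. *Npy*, the gene of neuropeptide Y, had 1122 and 609 UMIs, or 543 CPM [512, 576] and 310 CPM [286, 336], a log2 ratio of -0.81 [-0.95, -0.67]. *Crhbp* encodes a protein that binds corticotropin-releasing hormone and lowers its free level. It had 417 and 205 UMIs, a log2 ratio of -0.95 [-1.20, -0.71]. The opioid receptor gene *Oprd1* was the other member past the fold, with 92 and 50 UMIs and a log2 ratio of -0.81. Centred for length, *Cort* lay at -2.24, while *Npy* (-0.28), *Crhbp* (-0.50) and *Oprd1* (-0.56) were inside the fold. The other members tested were inside the fold, among them *Oprm1*, the mu opioid receptor, at 0.55 [0.18, 0.92], the dynorphin gene *Pdyn*, with 128 and 168 UMIs and a log2 ratio of 0.46 [0.12, 0.81], and *Tacr1*, the substance P receptor, at 0.53 [0.11, 0.96]. *Pdyn* lay at -0.10 after thinning, so its direction was not stable. *Tacr1* lay at -0.10 without the *Chodl*-*Nos1* type. Since *Tacr1* counts helped to choose that type, this value is a description and cannot show whether the direction was stable.

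Genes for the granules that carry these peptides varied in their values. Of 22 genes of somatostatin biosynthesis and secretion other than *Sst*, 17 reached 100 UMIs, with 6 lower past the fold and none higher (13.0% and 5.71% of all tested genes), and a median log2 ratio of -0.39 (-0.24 centred for length). *Vgf*, a granin-like secretory protein, had 415 UMIs (201 CPM [182, 221]) in Normal and 86 (43.8 CPM [35.02, 54.1]) in SAH. Its log2 ratio was -2.20 [-2.55, -1.86], the lowest of any gene with at least 200 UMIs, and it stayed at -1.67 when centred for length. *Vgf* was seen in 124 of 167 Normal nuclei and 56 of 144 SAH nuclei. In nuclei thinned to 4000 UMIs each, the shares were 51.5% [43.6, 59.4] and 20.1% [13.9, 27.6]. Of the oligodendrocyte nuclei, 4.33% and 4.51% held a *Vgf* UMI. *Scg2*, which encodes secretogranin II, had 370 and 160 UMIs, or 179 and 81.5 CPM, a log2 ratio of -1.14 [-1.41, -0.87]. *Ptprn*, a receptor-like protein of the granule membrane, had 587 and 306 UMIs and a log2 ratio of -0.87 [-1.07, -0.67]. The chromogranin genes *Chga* and *Chgb*, which shape the granule core, lay at -0.76 and -0.65. Centred for length, *Scg2* stayed just past the fold at -0.61, while *Ptprn* (-0.48), *Chga* (-0.25) and *Chgb* (-0.21) did not.

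The sixth lower member was *Syt7*, a calcium sensor of vesicle fusion, with 202 and 125 UMIs and a log2 ratio of -0.62 [-0.95, -0.29]. Other members lay inside the fold. *Pcsk2*, a convertase that cuts prosomatostatin, had 535 and 661 UMIs and a log2 ratio of 0.38 [0.21, 0.54]. *Cpe*, which trims the cut peptides, had 529 and 517 UMIs (0.04 [-0.14, 0.22]). The other convertase, *Pcsk1*, had 78 and 50 UMIs (-0.57 [-1.11, -0.04]). The vesicle fusion genes *Snap25* and *Syt1*, which also serve transmitter release, lay at -0.01 [-0.12, 0.10] and 0.05 [0.00, 0.09]. The granin family members *Scg3* (-0.48) and *Scg5* (-0.39) and the granule membrane protein *Ptprn2* (0.33) were inside it as well.

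Several promoters of this pathway hold the cyclic AMP response element, the sequence through which CREB acts, and it was first worked out on the somatostatin gene. They are shown because the lower genes with and without the element can then be compared. The sequences below come from the RefSeq promoter windows (250 bases before to 50 after the start, GRCm38.p6), 30 bases each, read 5′ to 3′ on the strand of the gene, with the element TGACGTCA, or the shorter core CGTCA, in capitals. For *Sst* the run lies at chr16:23890874-23890903 on the minus strand, for *Scg2* at chr1:79440076-79440105 on the minus strand, for *Chgb* at chr2:132781559-132781588 on the plus strand and for *Pcsk1* at chr13:75089768-75089797 on the plus strand. For *Cort* it lies at chr4:149126764-149126793 and for *Crhbp* at chr13:95444878-95444907, both on the minus strand.
*Sst*: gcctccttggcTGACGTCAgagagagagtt
*Scg2*: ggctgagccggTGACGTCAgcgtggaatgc
*Chgb*: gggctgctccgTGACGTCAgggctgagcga
*Pcsk1*: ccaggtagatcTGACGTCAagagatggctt
*Cort*: ctccggcttgtgCGTCAccgcgtgagtgtg
*Crhbp*: gagctggaccctCGTCAttgccacgcattt

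Counted from the RefSeq start, the full element starts 48 bases before *Sst*, 68 before *Scg2*, 72 before *Chgb* and 78 before *Pcsk1*. The GENCODE genes of *Sst*, *Scg2*, *Chgb* and *Crhbp* start further upstream (at position 23890958 for *Sst*), so that in this annotation those 4 runs lie inside the gene. *Cort* and *Crhbp* hold only the core, and *Npy* holds neither. Of the lower genes given above, *Vgf* and *Syt7* have no window and could not be searched. Of 32851 windows, 1.79% hold TGACGTCA, which reads the same on both strands, and 20.8% hold TGACG or its reverse complement CGTCA, a count that includes the full element. Of 4169 tested genes with a window, apart from the genes that chose the nuclei, 167 hold the full element, and of these 27 (16.2%) were lower past the fold and 6 (3.59%) higher, with a median log2 ratio of -0.18. Over all 4169 genes, 13.1% were lower and 4.58% higher, with a median of -0.15. Centred for length the medians were -0.03 and -0.01, so genes with the element sat close to the background. A match is a description of the sequence and says nothing of whether CREB binds there.

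Some transporters on the GABA side of these neurons were lower. Of 11 genes of GABA synthesis and transport other than *Gad1* and *Gad2*, 9 reached 100 UMIs, with 3 lower past the fold and none higher (13.0% and 5.71% of all tested genes), and a median log2 ratio of -0.52 (-0.32 centred for length). *Slc38a2*, which brings glutamine into the cell, had 405 and 129 UMIs, or 196 CPM [177, 216] and 65.7 CPM [54.8, 78.0], a log2 ratio of -1.58 [-1.88, -1.29]. *Slc32a1*, the transporter that fills synaptic vesicles with GABA, had 301 and 156 UMIs and a log2 ratio of -0.88 [-1.16, -0.59] (-0.35 centred for length). *Slc12a5*, the chloride exporter KCC2, lay at -0.55 [-0.83, -0.28], inside the fold. The synthetic enzymes *Gad1* (398 and 304 UMIs, -0.32 [-0.54, -0.10]) and *Gad2* (728 and 728 UMIs, 0.07 [-0.08, 0.22]) were used to choose nuclei and are given as a description.

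**Figure D3:**
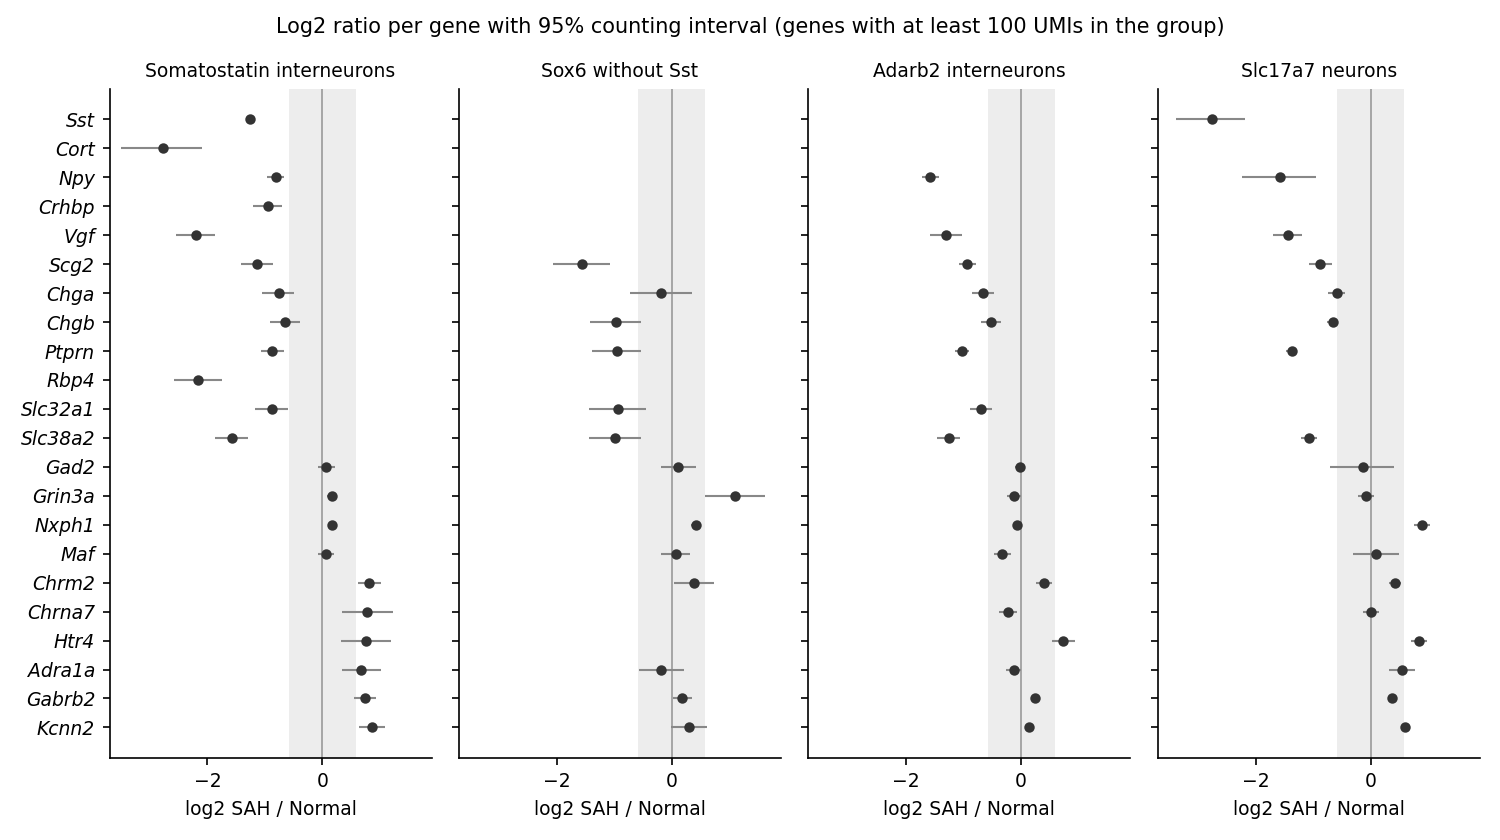
Log2 ratio of SAH over Normal (x axis) with its 95% counting interval for 22 genes (y axis) in somatostatin interneurons and 3 other groups of neurons. Genes under 100 UMIs in a group are left blank, and the grey band marks ratios inside 1.5-fold. The genes were chosen after their values were seen. In somatostatin interneurons those drawn from *Sst* to *Slc38a2* lie left of the band, while other members of their lists, such as *Pcsk2* (0.38) and *Cpe* (0.04), are inside it and not drawn, and *Gad2*, *Grin3a*, *Nxph1* and *Maf* lie inside it.

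The genes that mark the lineage of these cells were taken next. Of 19 genes of medial ganglionic eminence identity, 15 reached 100 UMIs, with 1 higher and 2 lower past the fold, a share near the 5.71% and 13.0% of all tested genes, and a median log2 ratio of -0.29 (0.00 centred for length). Summed over the list they took 10018 CPM in Normal and 10060 in SAH. *Sox6*, which chose the nuclei, lay at 1107 and 1284 CPM, *Grin3a* at 0.17 [0.09, 0.26] on the log2 scale, *Nxph1* at 0.16 [0.11, 0.21], *Maf* at 0.07 [-0.07, 0.20] and *Lhx6* at -0.29 [-0.69, 0.10]. *Satb1*, *Zeb2* and *Erbb4*, a factor of somatostatin interneuron maturation, a regulator of interneuron migration and the neuregulin receptor, lay between -0.48 and -0.40. The members past the fold were *Npas1*, a repressor of transcription, with 107 and 41 UMIs and a log2 ratio of -1.31 [-1.87, -0.78], *Elfn1*, which sets how excitatory synapses onto these cells facilitate, with 398 and 252 UMIs (-0.59 [-0.82, -0.36]), and *Etv1*, with 43 and 63 UMIs (0.62 [0.04, 1.22]). *Npas1* is also in the list of *Adarb2* interneuron markers summed above, so it does not mark this lineage alone. In the nuclei chosen without *Sst*, *Etv1* turned to -0.10 and *Erbb4* to 0.31. *Elfn1* lay at -0.45 when centred for length, inside the fold.

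The smaller subtype was found in both libraries. *Chodl*, *Nos1* and *Tacr1* together reached 3 UMIs in 15 Normal and 16 SAH nuclei, which is 8.98% and 11.1%. These *Chodl*-*Nos1* type nuclei held 125 and 139 *Nos1* UMIs, or 656 and 570 CPM, which is a description since *Nos1* helped to choose them. Their *Sst* lay at 3496 CPM in Normal and 1013 in SAH, a log2 ratio of -1.79 [-2.004, -1.57]. In the other 152 and 128 nuclei the *Sst* log2 ratio was -1.18 [-1.27, -1.10].

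After thinning to 4000 UMIs, which left out 4 Normal nuclei, the intervals of the marker shares overlapped for every subtype marker plotted. *Reln*, a secreted glycoprotein common in upper-layer somatostatin cells, was seen in 63.2% [55.3, 70.6] of Normal and 68.8% [60.5, 76.2] of SAH nuclei (70.1% and 75.7% before thinning). *Calb1*, the calcium buffer of many Martinotti cells, was seen in 33.7% [26.5, 41.6] and 40.3% [32.2, 48.8] (53.9% and 54.2% before thinning). *Npy* was seen in 60.7% [52.8, 68.3] and 47.9% [39.5, 56.4], and in 78.4% and 75% before thinning. Without thinning, 8.40% and 4.02% of *Slc17a7* neurons and 8.17% and 2.74% of oligodendrocyte nuclei held an *Npy* UMI. *Hpse*, a heparanase gene used as a marker of a layer 4 type, had 90 and 42 UMIs and a log2 ratio of -1.03 [-1.59, -0.48] (-0.44 with every nucleus thinned before the choice), and was seen in 11.0% [6.68, 16.9] and 4.86% [1.98, 9.76] after thinning. Of 29 subtype markers, 10 reached 100 UMIs, with *Hpse* and *Npy* lower past the fold and none higher. The lower share was 20%, beside 13.0% of all tested genes lower and 5.71% higher. *Th* was at 0 in both libraries, and *Myh8* and *Chrna2*, markers of deep-layer types, had 1 and 2 UMIs over both.

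**Figure D4:**
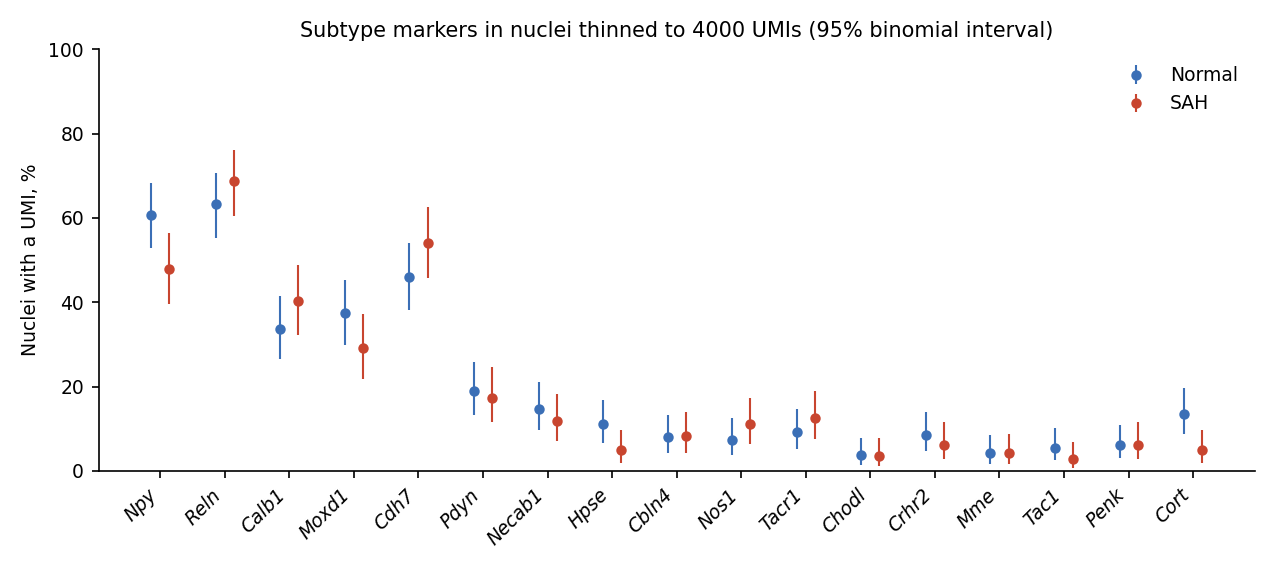
Share of somatostatin interneurons with a UMI of each subtype marker (y axis, percent, with 95% binomial intervals) in the Normal (blue) and SAH (red) libraries, after each nucleus was thinned to 4000 UMIs. The intervals of the libraries overlap for every marker shown, *Reln* lying at 63.2% and 68.8%.

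Values were also taken within subgroups of the nuclei, and those of *Sst*, which chose the nuclei, are a description. In nuclei with a UMI of *Npy* (131 and 108) the *Sst* log2 ratio was -1.25 [-1.34, -1.17], and in nuclei without one (36 and 36) it was -0.88 [-1.08, -0.68]. In nuclei with at least 5 *Reln* UMIs (96 and 76) it was -1.37 [-1.48, -1.27], and in the others (71 and 68) -1.16 [-1.27, -1.04]. *Vgf* lay between -2.43 and -1.77 in these 4 subgroups, and at -0.97 [-2.02, 0.03] in the *Chodl*-*Nos1* type, where the interval includes 0. These splits were made after the data had been seen.

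Several receptors for neuromodulators lay higher. Of 22 monoamine and acetylcholine receptor genes, 7 reached 100 UMIs, with 4 higher past the fold and none lower (5.71% and 13.0% of all tested genes), and a median log2 ratio of 0.68 (0.67 centred for length). The median depended on the nuclei and genes taken: it was 0.27 with the *Sst* limit lowered to 3 UMIs, 0.35 in the nuclei chosen without *Sst*, 0.39 over genes with at least 200 UMIs and 0.50 without the *Chodl*-*Nos1* type. *Chrm2*, the muscarinic M2 receptor, had 322 and 540 UMIs, or 156 CPM [139, 174] and 275 CPM [252, 299], a log2 ratio of 0.82 [0.62, 1.02]. Most of this came from the *Chodl*-*Nos1* type, where it went from 840 to 1514 CPM. In the other nuclei its log2 ratio was 0.20 [-0.12, 0.52]. *Chrna7*, the alpha7 nicotinic receptor, had 69 and 113 UMIs (0.78 [0.34, 1.24]), the serotonin receptor gene *Htr4* had 74 and 119 (0.76 [0.33, 1.20]), and the adrenergic receptor gene *Adra1a* had 124 and 189 (0.68 [0.35, 1.02]). The muscarinic receptor gene *Chrm3*, with 3259 and 2795 UMIs, lay at -0.15 [-0.22, -0.08], so that summed over the whole list the log2 ratio was 0.06 [0.00, 0.12]. *Adra1a* was inside the fold in the nuclei chosen without *Sst*, at 0.34, and *Htr4* in the thinned nuclei, at 0.32. *Chrna7* was just inside it, at 0.58, with each nucleus weighted the same and with every nucleus thinned before the choice, so each of the 4 higher receptors was inside the fold under at least 1 alternative.

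Receptors of fast transmission lay closer to the background. Of 13 tested GABA-A and GABA-B receptor genes, 3 were higher past the fold, beside 5.71% of all tested genes, and none lower (median 0.27, 0.18 centred for length). They were *Gabrb2* (384 and 611 UMIs, 0.74 [0.56, 0.93]), *Gabrg1* (81 and 121, 0.65 [0.23, 1.08]) and *Gabra3* (220 and 319, 0.61 [0.36, 0.86]). In the nuclei chosen without *Sst* all 3 were inside the fold, with *Gabrb2* at 0.58, *Gabrg1* at 0.16 and *Gabra3* at 0.44. Of 20 tested glutamate receptor genes, *Grik4*, a kainate receptor subunit, was the only one past the fold, a higher share of 5% beside 5.71%. It had 72 and 108 UMIs (0.66 [0.21, 1.11]), and the median of the list was 0.16 (0.03 centred for length). *Grik4* was inside the fold with each nucleus weighted the same (0.46) and when centred for length (0.45). *Grin2a*, an NMDA receptor subunit, lay at 0.48 [0.40, 0.56].

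The medians of ion channel and adhesion genes sat near the length background. Of 27 tested potassium and HCN channel genes, 4 were higher and 3 lower past the fold, with a median of 0.14 (-0.03 centred for length). These were 14.8% and 11.1%, beside 5.71% higher and 13.0% lower of all tested genes. *Kcnn2*, a calcium-activated potassium channel, had 243 and 420 UMIs (0.86 [0.63, 1.10]), *Kcnk2*, a leak channel, had 321 and 173 (-0.82 [-1.09, -0.55]), and *Hcn2*, a pacemaker channel, had 78 and 31 (-1.26 [-1.91, -0.64]). *Kcnip4*, a potassium channel partner, lay at 0.82 [0.76, 0.88], but 1 SAH nucleus held 618 of its 5875 UMIs, and weighting each nucleus the same gave 0.51. Thinning every nucleus before the choice gave 0.02 for *Kcnip4* and 0.06 for *Lrrc4c*, an adhesion gene. Of 28 tested sodium and calcium channel genes, 1 was past the fold in each direction (median 0.09, -0.06 centred for length). That is 3.57% each way, beside 5.71% higher and 13.0% lower of all tested genes. *Cacna1g*, a T-type calcium channel, was lower, with 96 and 54 UMIs (-0.76 [-1.27, -0.26], but -0.45 with every nucleus thinned before the choice). *Cacna2d1* was higher, with 102 and 158 UMIs (0.70 [0.34, 1.08]), of which 1 SAH nucleus held 34, and without the nuclei of the highest doublet scores its log2 ratio was -0.11. Of 28 tested synaptic adhesion genes, 4 were higher and 2 lower past the fold (median 0.09, 0.00 centred for length). The shares were 14.3% and 7.14%, beside 5.71% and 13.0% of all tested genes. *Lrrc4c* lay at 0.77, *Ptprd* at 0.68, *Tenm2* at 0.65 and *Nrxn2* at -0.61. In the nuclei chosen without *Sst*, *Lrrc4c* lay at 0.26 and *Ptprd* at 0.32. *Ptprd* was at 0.41 without the highest doublet scores, and *Tenm2* at 0.44 when centred for length, all inside the fold. *Nrxn2* was inside it under 5 alternatives, such as -0.47 with the *Sst* limit at 10 UMIs and -0.45 with TMM scaling.

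Genes that mark recent activity were low in both libraries. None of 20 rapid immediate early genes reached 100 UMIs. Summed they held 151 UMIs in Normal, or 73.1 CPM, and 52 in SAH, or 26.5 CPM, a log2 ratio of -1.47 [-1.95, -1.002]. The following members were chosen after their values were seen. *Fos*, the gene of a rapid transcription factor, had 11 UMIs in Normal and 0 in SAH, and *Arc*, a postsynaptic gene, had 13 and 0. Set against 3 counts in the SAH library, *Fos* was 3.49-fold lower and *Arc* 4.12-fold lower. These values leave out the counting error of the Normal counts, so they are not lower limits. *Egr1* had 33 and 4 UMIs, and *Nr4a1* 36 and 12. Of 22 late activity genes, 6 reached 100 UMIs, and *Vgf* and *Scg2*, given above, were the members past the fold (median -0.49, -0.36 centred for length). The lower share was 33.3% and none was higher, beside 13.0% and 5.71% of all tested genes. The scaffold gene *Homer1*, with 366 and 261 UMIs, lay at -0.42, and *Sorcs3*, a sorting receptor, at 0.42 [0.11, 0.72] (-0.04 with every nucleus thinned before the choice).

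Few glucocorticoid and clock genes were past the fold. Of 5 tested glucocorticoid response genes, *Tiparp* was lower past the fold (20%, beside 13.0% of all tested genes) and none was higher. It had 112 and 54 UMIs (-0.98 [-1.48, -0.50], but -0.03 in the thinned nuclei), and the median of the list was 0.18 (0.24 centred for length). *Fkbp5*, a chaperone of the glucocorticoid receptor, had 62 and 82 UMIs (0.48 [-0.02, 0.98]), and *Zbtb16* had 129 and 180 (0.55 [0.22, 0.89]). In the nuclei chosen without *Sst* they lay at 0.91 and 0.75, past the fold. With the *Sst* limit at 10 UMIs they lay at 0.24 and 0.37, inside it. Of 8 tested core clock genes, *Hlf* was the only one past the fold (12.5% higher, beside 5.71% of all tested genes). It had 48 and 81 UMIs (0.83 [0.29, 1.37]), and the median of the list was -0.12.

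Lists of cellular stress lay lower, and less so when centred for length. Of 6 tested genes of the unfolded protein and integrated stress response, 4 were lower past the fold and none higher. Of all tested genes 13.0% were lower, and of those under 10 kb 50.9%. The 4 were *Calr* (-0.95), *Hsp90b1* (-0.91), *Hspa5* (-0.86) and *Dnajb9* (-0.59), which are chaperones of the endoplasmic reticulum. The median was -0.72, and -0.24 centred for length, where all 4 were inside the fold. Of 9 tested heat shock chaperones, 4 were lower, beside 13.0% of all tested genes, and none higher (median -0.57, -0.27 centred for length), with *Hsp90ab1* at 200 and 83 UMIs (-1.20 [-1.58, -0.82]). Of 4 tested hypoxia response genes, 2 were lower past the fold, beside 13.0% of all tested genes, and none higher. *P4ha1*, a collagen-modifying enzyme, had 111 and 37 UMIs (-1.51 [-2.09, -0.96]). *Vegfa* had 83 and 40 (-0.98 [-1.56, -0.42], and -0.56 centred for length), and *Hif1a* had 87 and 82 (-0.01 [-0.47, 0.44]).

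Of 14 tested respiratory chain genes, 8 were lower past the fold, beside 13.0% of all tested genes and 50.9% of those under 10 kb, and none higher, with a median of -0.63, of which -0.10 remained when centred for length. *Cox8a* lay at 49.9 and 22.4 CPM (-1.15 [-1.70, -0.63]) and *Cox4i1* at 64.9 and 29.5 CPM (-1.14 [-1.61, -0.68]). Of 19 tested temperature-sensitive RNA-binding genes, 9 were lower, beside the same 13.0%, and none higher (median -0.56, -0.21 centred for length). *Clk4*, a kinase that phosphorylates splicing factors, had 319 and 131 UMIs (-1.21 [-1.52, -0.91]). Of 7 tested antioxidant and iron genes, 1 was past the fold in each direction (14.3%, beside 5.71% higher and 13.0% lower of all tested genes). *Gclm*, part of the enzyme for glutathione synthesis, was higher (40 and 60 UMIs, 0.66 [0.06, 1.27]) and the transferrin receptor gene *Tfrc* lower (228 and 140 UMIs, -0.63 [-0.95, -0.32]). With every nucleus thinned before the choice they lay at 0.31 and -0.35, inside the fold. None of 3 tested p53 and growth arrest genes was past the fold. Of 3 tested inflammatory genes, 2 were lower past the fold, beside 13.0% of all tested genes, and none higher. *Socs2*, a brake on cytokine signalling, had 120 and 39 UMIs (-1.55 [-2.11, -1.02]) and *Stat3* 68 and 38 (-0.77 [-1.38, -0.17]), with *Stat3* at -0.41 when the *Sst* limit was 3 UMIs. *Tnf* and *Il6* were at 0 in both libraries, and *Il1b* had 1 UMI in Normal and 0 in SAH.

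**Figure D5:**
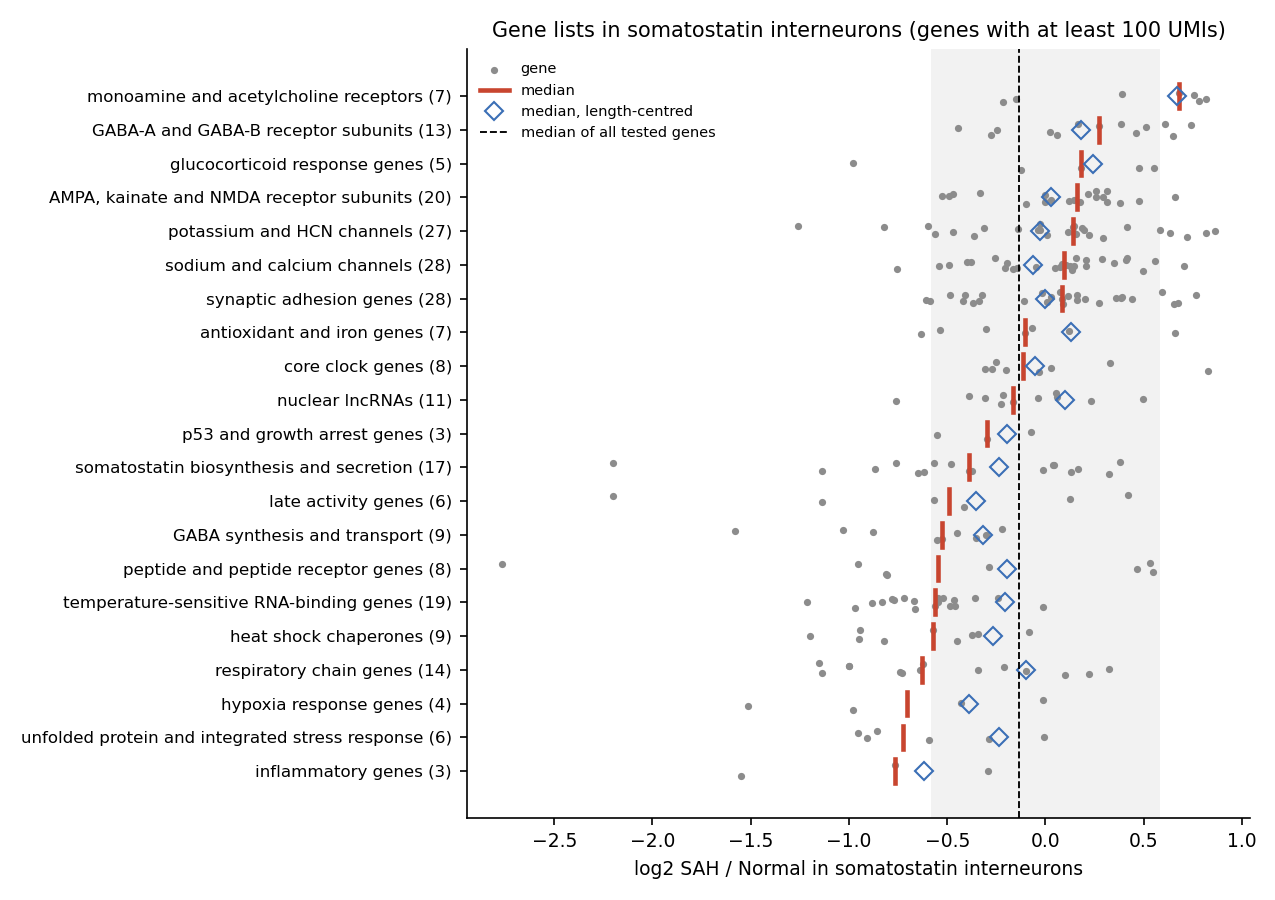
Log2 ratio of SAH over Normal (x axis) for the tested genes of 21 lists (y axis, number of genes in parentheses) in somatostatin interneurons. Grey points are genes, red bars their medians, blue diamonds the medians centred for gene length, and the dashed line is the median of all 5410 tested genes at -0.13. Monoamine and acetylcholine receptors keep their median of 0.68 at 0.67 when centred, and respiratory chain genes go from -0.63 to -0.10.

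Among genes with at least 200 UMIs, the 12 lowest were all protein coding, and 8 of them were under 10 kb. After *Vgf* came *Rbp4*, a retinol-binding protein, with 286 UMIs (138 CPM [123, 156]) and 61 (31.1 CPM [23.8, 39.9]) and a log2 ratio of -2.16 [-2.58, -1.75]. The others were *AC149090.1*, *Slc38a2*, *C1qtnf4*, *Atp6v0b*, *Smpd4*, *Sptb*, *Cst3*, *Pabpn1*, *Clk4* and *Hsp90ab1*, between -1.65 and -1.20. They differ in function, among them a subunit of the vesicle proton pump (*Atp6v0b*), a spectrin of the membrane skeleton (*Sptb*, -1.27 [-1.66, -0.90]) and the secreted protease inhibitor cystatin C (*Cst3*).

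Of the 12 highest, 8 were not protein coding and 8 overlap another gene on the opposite strand. *5530401A14Rik* led with 69 and 244 UMIs (1.89 [1.504, 2.30]) and lies opposite *Asic2*, an acid-sensing channel gene that itself lay at 0.56 [0.50, 0.63]. *Gm47027*, with 109 and 315 UMIs (1.60 [1.28, 1.93]), lies opposite *Grip1*, which lay at 0.03 [-0.02, 0.08]. *4930419G24Rik* (1.48) lies opposite *Pex5l* (0.75), and *Gm48091* (1.35) opposite *Opcml* (0.35). *AY036118*, with 172 and 492 UMIs (1.59 [1.34, 1.85]), lies opposite *Gm42418*, which went the other way at -0.80 [-0.99, -0.62]. The use of strand in counting is not given in the sources used here, so reads of such pairs may not be told apart. *4930532I03Rik*, *2810049E08Rik*, *Gm15680*, *Gm5441*, *Gm47283* and *Gm15155* lay between 1.45 and 1.76. The protein-coding *Bche*, which encodes butyrylcholinesterase, had 68 and 168 UMIs (1.38 [0.96, 1.81]).

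Among 11 tested nuclear long noncoding RNAs, *Malat1* was the one past the fold, a lower share of 9.09% beside 13.0% of all tested genes. *Malat1* had 119161 UMIs in Normal and 66817 in SAH, a log2 ratio of -0.76 [-0.78, -0.75] (-0.24 centred for length). It took 57698 and 34015 CPM of all UMIs. *Kcnq1ot1* lay at 0.50 [0.41, 0.59].

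Most of the extreme genes lay past the fold the same way in other neurons. Of the 12 lowest, 11 reached 100 UMIs in *Adarb2* interneurons (306 Normal and 544 SAH nuclei), and 10 of them were past the fold downwards there too. In *Slc17a7* neurons (1285 and 523 nuclei) it was 10 of 11, and in *Sox6* interneurons without *Sst* (48 and 50 nuclei) 5 of 6. Of the 12 highest, all 11, 12 and 7 that reached 100 UMIs in these groups were past the fold upwards. Of all genes with at least 100 UMIs in *Adarb2* interneurons, 13.7% were past the fold downwards and 5.46% upwards. In *Slc17a7* neurons these shares were 16.9% and 8.07%, and in *Sox6* interneurons without *Sst* 7.35% and 5.34%. *Sptb* was an exception, at -0.04 in *Sox6* interneurons without *Sst*, from 60 and 58 UMIs, 0.17 in *Adarb2* interneurons and -0.45 in *Slc17a7* neurons. These groups come from the same libraries, so they are not independent of each other, and a difference between them was not tested.

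Values of single genes are given side by side across these neurons. *Vgf* lay at -2.20 [-2.55, -1.86] in somatostatin interneurons, -1.31 [-1.59, -1.02] in *Adarb2* interneurons and -1.44 [-1.70, -1.19] in *Slc17a7* neurons. *Scg2* lay at -1.14, -0.93 and -0.87 in the same order, and at -1.56 [-2.07, -1.07] in *Sox6* interneurons without *Sst*. *Npy* lay at -0.81 [-0.95, -0.67] in somatostatin interneurons and -1.58 [-1.73, -1.43] in *Adarb2* interneurons, and with the *Sst* limit raised to 10 UMIs its value in somatostatin interneurons was -0.43. *Chrna7* lay at 0.78 [0.34, 1.24] in somatostatin interneurons, -0.23 [-0.38, -0.07] in *Adarb2* interneurons and 0.01 [-0.12, 0.14] in *Slc17a7* neurons, and *Adra1a* at 0.68 [0.35, 1.02], -0.13 [-0.26, 0.00] and 0.55 [0.32, 0.77]. The median of the monoamine and acetylcholine receptor list was 0.68 in somatostatin interneurons. It was 0.04 in *Adarb2* interneurons and 0.09 in *Slc17a7* neurons, over 7 genes each. In *Sox6* interneurons without *Sst* it was 0.10 over 4 genes. The value in somatostatin interneurons fell to 0.27 with the *Sst* limit lowered to 3 UMIs. Medians of other lists follow for somatostatin interneurons, *Adarb2* interneurons and *Slc17a7* neurons, in this order. GABA synthesis and transport lay at -0.52, -0.49 and -0.16, with -0.63 in *Sox6* interneurons without *Sst*. Heat shock chaperones lay at -0.57, -0.66 and -0.53, and late activity genes at -0.49, 0.03 and -0.68. With 1 library per condition, whether such differences between cell types would recur in other mice cannot be told from these data.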

How the data were processed

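Single-nucleus libraries (10x Genomics 3′ chemistry) of 1 Normal and 1 SAH pool were analysed. The authors aligned reads to mm10 and deposited raw UMI counts per gene and nucleus, not normalized, for 32285 genes. The file headers name Cell Ranger 6.1.2 and the submitters' processing notes 5.0.0. The Normal library holds 12204 nuclei (114970719 UMIs, median 7252.5) and the SAH library 18209 (172604358 UMIs, median 8151). The study states more nuclei for the control than for SAH, which is the reverse of these files.

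Members and gene lists were chosen with earlier results of these data known. Counts were summed over the member nuclei of a library and divided by all their UMIs (CPM). CPM carry exact Poisson intervals, ratios exact conditional binomial intervals and shares exact Clopper-Pearson intervals, all at 95%, which cover counting error only. No test was run, as there is 1 library per group and nuclei of 1 library are not replicates. Genes with at least 100 UMIs over both libraries are called tested in the text and were counted past 1.5-fold. The genes named are the 12 highest and 12 lowest with at least 200 UMIs, up to 4 per list by size of the log2 ratio, and all identity and subtype genes. Other genes named were chosen after their values were seen. Some genes that this rule or a list holds are counted in the lists but are not reported here by name. Doublets were kept, and removing the highest Scrublet scores (0.8% per 1000 nuclei) was an alternative. For comparison, under the same limits on genes and UMIs, *Sox6* interneurons without *Sst* held at most 1 *Sst* and at least 2 *Lhx6* UMIs, *Adarb2* interneurons at least 20 *Adarb2* UMIs, and *Slc17a7* neurons at least 5 *Slc17a7* and at most 2 *Gad1* plus *Gad2* UMIs. Other alternatives changed the *Sst* limit, the UMI minimum, the fold, the scaling, the weighting or thinning of nuclei, and left out the *Chodl*-*Nos1* type. Centring for gene length, leaving out *Malat1* and choosing nuclei without *Sst* were added after the data had been seen. The scripts were tested on simulated data. Gene positions and lengths came from GENCODE vM21. Python 3.11.15, numpy 2.4.6, scipy 1.17.1, pandas 2.3.3 and scanpy 1.11.5 were used.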

Additional observations from a re-analysis of the deposited data

Results flagged for a closer look

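*Cacna2d1*, which encodes an auxiliary subunit of calcium channels, went opposite ways in related neurons. Its log2 ratio of SAH over Normal was 0.70 in somatostatin interneurons and -1.05 in *Sox6* interneurons without *Sst*, from 79 and 38 UMIs in 48 and 50 nuclei. The difference was not tested. The value in somatostatin interneurons is also one that changed sign with the doublet filter.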

How the results depend on the processing

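Member shares moved with the *Sst* limit. At 10 UMIs they were 1.33% in Normal and 0.491% in SAH, and at 3 UMIs the SAH share was 1.23%. It was 0.761% with the rule on nuclei thinned first and 1.31% when chosen without *Sst*. Genes higher and lower past the fold numbered 162 and 176 after thinning the members, 520 and 1438 at 50 UMIs, 184 and 243 at 200 UMIs, 85 and 140 at 2-fold, 479 and 432 centred on the median gene, and 535 and 380 with TMM. Centring for length gave 248 lower genes.

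Among list medians, centring and TMM gave 0.29 and 0.32 for glutamate receptors, 0.27 and 0.30 for potassium channels, 0.23 and 0.26 for sodium and calcium channels, and -0.43 and -0.40 for temperature-sensitive RNA-binding genes. TMM gave 0.84 for monoamine and acetylcholine receptors. Centring for length gave -0.27 for heat shock chaperones and -0.21 for temperature-sensitive RNA-binding genes, and thinning before the choice gave 0.63 for glucocorticoid genes. The other 252 medians, counting each list under each alternative, stayed within the spread of their genes.

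Of 126 genes, 23 changed sign under at least 1 alternative, 21 of them inside the fold, such as *Erbb4* (-0.40, but 0.43 with *Sst* at 10 UMIs). Of 77 genes past the fold, 40 fell inside it under at least 1 alternative and 2 changed sign: *Cacna2d1* gave -0.11 without high doublet scores and -0.018 with nuclei thinned first, and *Etv1* gave -0.10 when chosen without *Sst*. The cause was not tested. *Sst* stayed lower under every alternative, from -1.56 to -0.72. In all, 216 of the gene ratios moved beyond their interval, 3 more changed sign from past the fold and 1418 did neither. Depth limits the rarer genes, and 1 library per condition leaves the variation between mice unknown.

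No paired analysis was possible because each group has 1 library.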
